A study of Mus musculus with 6 samples.

Results

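The milk protein genes examined here were 10 genes, read from the 16 probe sets of a mouse Affymetrix array whose only platform gene symbol was Csn1s1, Csn1s2a, Csn1s2b, Csn2, Csn3, Wap, Lalba, Glycam1, Lao1 or Xdh, out of 45037 probe sets for genes. The arrays measured RNA of 6 tumours grown from the GLMT1 line (GRS/A Lung Metastasis Tumor 1) under the back skin of male mice, with 100 microlitres of a suspension of 1e+07 cells per ml inoculated in each host. The 3 TNKO tumours grew in tenascin-C-deficient GRS/A-TgH(TnC) mice and the 3 WT tumours in GRS/A mice with intact tenascin-C, a glycoprotein of the extracellular matrix. The hosts were 8 weeks old in the study design and 10 weeks old in the sample labels. All 6 tumours came from the same cell line, which the labels do not describe as lacking tenascin-C, and the labels give the deficiency as the genotype of the host. The tumours were profiled whole, and fewer cells of a type and less RNA per cell cannot be told apart in such samples.

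Milk proteins are made by secretory luminal cells of the mammary gland in late pregnancy and lactation. Prolactin, acting through its receptor and the kinase JAK2, activates the transcription factor STAT5, which together with the glucocorticoid receptor, C/EBP-beta and ELF5 turns on casein and whey protein genes. GRS/A mice are a strain known for mammary tumours linked to mouse mammary tumour virus, which gives the genes an interest in a tumour line of this strain, although the labels do not call GLMT1 a mammary line.

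Milk protein genes were dim in these tumours, and none passed the test between host genotypes. Of the 16 probe sets 13 lay below the median level of all probe sets, and the 11 for caseins lay among the levels seen for olfactory receptor genes. By limma, 0 of the 16 passed an adjusted p of 0.05, against 0.175% of all probe sets. An unadjusted p under 0.05 was reached by 4 of the 16 (25.0%), against 20.3% of all probe sets. As deposited, 15 of the 16 (93.8%), 88.6% of olfactory receptor and 54.4% of all probe sets were higher in TNKO tumours. The 15 were higher by 0.0667 to 115 millionths of a log2 unit. Rescaling the arrays lowered the median difference of the whole array by more than these differences. Then 0 (medians subtracted) and 1 (quantile normalization) of the 16 were higher in TNKO tumours, while 14 and 15 lay above that median. Subtracting medians moves every difference by the same amount. The 14 was therefore already the count as deposited, and the 0 followed from that shift. Quantile normalization moves a probe set by its place on the array, so the 15 cannot be told apart from that place.

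The casein genes are shown with the sequence before their start sites because the STAT5 motif is the best known control element of this family. The table of RefSeq promoters (build GRCm38.p6) held 7 of the 10 genes, Csn1s1, Csn2, Csn1s2a, Wap, Lalba, Glycam1 and Lao1. The motif searched was TTCNNNGAA, which reads the same on both strands, in the 250 bases before the start site. It was found in 3 of the 7 genes, Csn1s1, Csn2 and Glycam1, against 2306 of 32851 windows (7.02%) in the whole table. Each line below gives the motif in capitals with 30 bases on either side, 5′ to 3′ on the strand of the gene.
Csn1s1, chr5:87666078-87666146, plus strand, motif at -100 to -92: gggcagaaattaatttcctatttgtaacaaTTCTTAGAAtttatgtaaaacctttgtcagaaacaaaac
Csn2, chr5:87699480-87699548, minus strand, motif at -93 to -85: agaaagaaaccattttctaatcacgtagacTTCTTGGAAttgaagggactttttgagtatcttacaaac
Glycam1, chr15:103565188-103565256, minus strand, motif at -145 to -137: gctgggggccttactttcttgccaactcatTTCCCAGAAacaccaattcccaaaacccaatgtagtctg
In Csn1s1 and Csn2 the motif stood at nearly the same distance from the start. A match is a description of the letters and shows no binding, and no match says only that these letters are not in the window.

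Arrays differed by very little in the deposited values, so levels and differences are given separately. A level is the mean deposited log2 value over the 6 arrays and shows where a probe set lay on the array. It is not an amount of RNA, since probe sets differ in how well they bind. The median level of the 45037 probe sets was 6.57 and their range 5.20 to 13.85. The median probe set spanned 5.46 millionths of a unit over the 6 arrays, and the median milk protein probe set 2.39 millionths. Of the 16 milk protein probe sets 12 spanned less than the median probe set. Values per tumour are therefore printed in millionths of a log2 unit relative to the mean of the 3 WT tumours, and a difference cannot be read as a fold change. Differences are TNKO minus WT, and a residual SD is the spread among tumours of the same host genotype.

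Caseins are the calcium-binding proteins that pack into milk micelles, and their 5 genes lie close together on chromosome 5. Their 11 probe sets had levels of 5.55 to 6.31, all below the median of all probe sets. Csn1s1, which encodes alpha-S1-casein, stood at 5.93, above 17.6% of all probe sets and above 47.7% of the 44 olfactory receptor probe sets. These receptors are genes of the nasal epithelium and served as a class not known for expression in such tumours. Csn2, which encodes beta-casein, stood at 5.82 and 5.79 in its 2 probe sets, or above 11.9% and 10.1% of all. Csn3, which encodes kappa-casein, the protein that coats and stabilises the micelle, stood at 5.74 and 5.62. The lowest of all was Csn1s2b, the delta-casein gene, at 5.55, above 2.48% of all probe sets. Csn1s2a, the gamma-casein gene, was read by 5 probe sets with levels of 5.77 to 6.31. The 10th to 90th percentile of the olfactory receptor levels ran from 5.67 to 6.35, and 11 of the 16 milk protein probe sets fell inside it, 2 below it and 3 above it.

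The whey and secretory genes were spread more widely. Lalba, the lactose synthase subunit alpha-lactalbumin, stood at 6.32, and Glycam1, a mucin-like glycoprotein of milk and of high endothelial venules, at 6.03. Both lay below the median of all probe sets. Wap, the whey acidic protein of rodent milk, stood at 6.79, above 57.1% of all probe sets. Lao1, an L-amino acid oxidase found in mouse milk, stood at 6.67, above 53.3%. Xdh, the purine-degrading xanthine dehydrogenase that also forms part of the coat of milk fat globules, stood at 7.95, above 78.6%. These 3 were the milk protein probe sets that lay above the median of all probe sets, and each was above all 44 olfactory receptor probe sets.

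**Figure D1:**
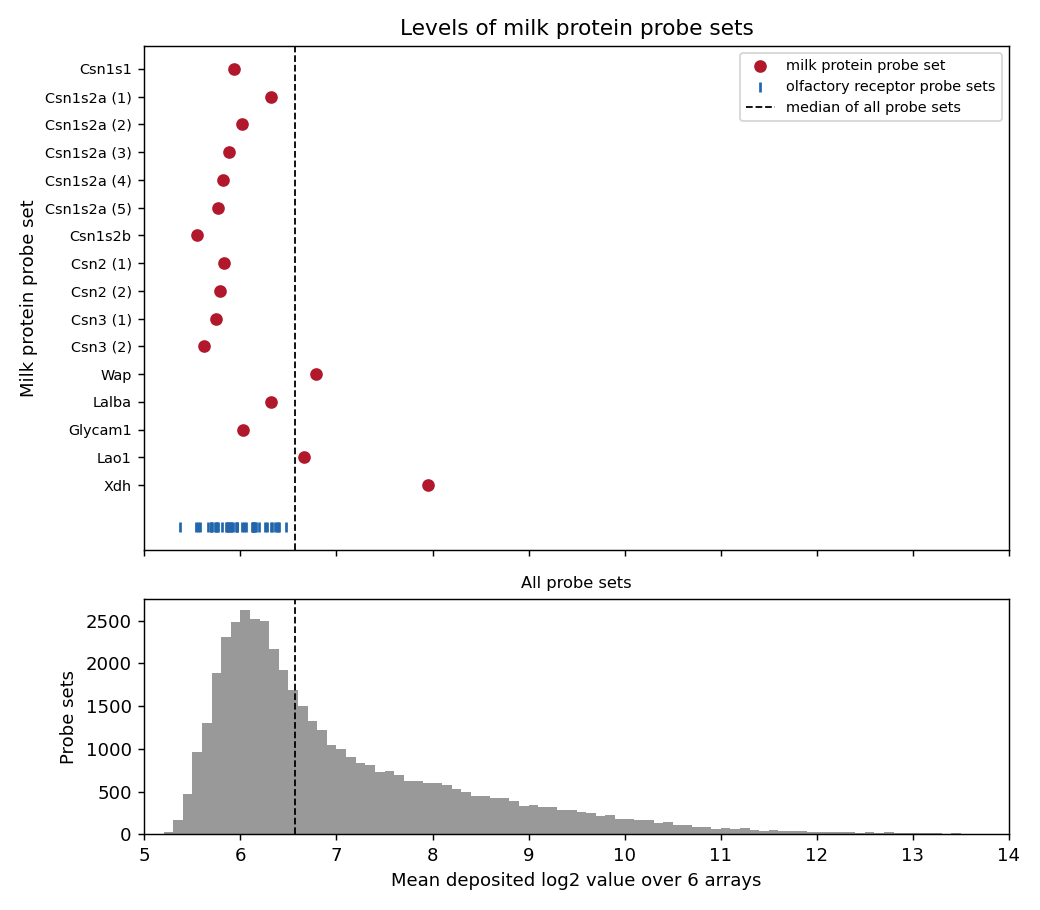
Levels of the 16 milk protein probe sets (red points, 1 row each, probe sets of a gene numbered from the brightest) and of 44 olfactory receptor probe sets (blue ticks), with the histogram of all 45037 probe sets under them. The horizontal axis is the mean deposited log2 value over 6 arrays and the dashed line is the median of all probe sets, 6.57. Xdh at 7.95, Wap at 6.79 and Lao1 at 6.67 are the points to the right of the line.

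The comparison of hosts asks whether loss of tenascin-C from the host was accompanied by a change of gene expression in the tumour. Over all probe sets limma called 79 of 45037 (0.175%), of which 19 were higher (0.0422%) and 60 lower (0.133%) in TNKO tumours, and 0 of the 16 milk protein probe sets were among them. Adjusted p-values of the 16 ran from 0.173 to 0.947 by limma. The called probe sets all differed by at least 9.93 residual SDs, and the milk protein probe sets by -0.157 to 2.82. At an unadjusted p under 0.05 there were 4 of 16 milk protein probe sets (25.0%), all 4 higher in TNKO tumours, against 20.3% of all probe sets in either direction and 9.53% in the higher direction.

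Csn2 was higher in each TNKO tumour than in any WT tumour by its brighter probe set, without passing adjustment. It stood 2.16, 2.53 and 0.735 millionths above the WT mean in TNKO tumours 1 to 3, against 0.284, -0.796 and 0.511 millionths in WT tumours 1 to 3. The gap between the lowest TNKO and the highest WT tumour was small beside the spread of either group. The difference was 1.81 millionths (SE 0.668, 2.17 residual SDs, limma adjusted p = 0.239). In the dimmer probe set the TNKO tumours stood at -1.31, 1.63 and 0.768 millionths and the WT tumours at 1.10, -0.341 and -0.755, so the groups overlapped. That probe set has the suffix of those whose probes can bind transcripts of more than 1 gene, and its difference was 0.362 millionths (adjusted p = 0.883). The 2 probe sets of Csn2 correlated at 0.149 over the 6 arrays, as a description.

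Csn1s2a gave different answers in its 5 probe sets. Its brightest probe set was the only one of the 16 that was lower in TNKO tumours, at -0.24, 0.662 and -0.678 millionths, against -0.393, 0.267 and 0.125 in WT tumours. The groups overlapped and the difference was -0.085 millionths (adjusted p = 0.947). The fourth in brightness, at a level of 5.82, had the lowest p of all milk protein probe sets. It stood at 14.0, 7.85 and 6.02 millionths in TNKO tumours, against 2.88, -1.43 and -1.45 in WT tumours. All TNKO tumours lay above all WT tumours there, with a difference of 9.30 millionths (SE 2.64, 2.69 residual SDs, limma adjusted p = 0.173). The other 3 probe sets overlapped between the groups and differed by 0.15 to 1.48 millionths. Of the 5 probe sets 2 were designed from the same source sequence, and these 2 correlated at 0.076 over the 6 arrays, within a range of -0.346 to 0.65 over all pairs, as a description.

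Csn3 also had 2 probe sets. The brighter varied most among the caseins, with 3.72, 10.9 and 20.8 millionths in TNKO tumours, against -8.92, -5.41 and 14.3 in WT tumours. WT tumour 3 lay between TNKO tumours 2 and 3, and the difference of 11.8 millionths had an SE of 8.20 (limma adjusted p = 0.486). The dimmer stood at 0.591, 0.787 and 0.729 millionths in TNKO tumours, against -0.334, 0.462 and -0.128 in WT tumours. Its groups did not overlap, and its difference was 0.702 millionths (SE 0.309, adjusted p = 0.300). Csn1s1 stood at 1.38, 0.282 and 1.19 millionths in TNKO tumours, against -0.459, 0.0923 and 0.366 in WT tumours, with TNKO tumour 2 under WT tumour 3 (difference 0.952, limma adjusted p = 0.321). Csn1s2b stood at 0.114, 0.107 and -0.0203 millionths in TNKO tumours, against -0.301, -0.105 and 0.407 in WT tumours, inside whose range all TNKO tumours lay (adjusted p = 0.931).

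Among the whey genes, Lalba showed the widest separation in residual SDs. It stood at 1.01, 0.467 and 0.992 millionths in TNKO tumours, against 0.0237, 0.261 and -0.284 in WT tumours. The groups did not overlap, and the difference was 0.821 millionths (SE 0.304, 2.82 residual SDs, limma adjusted p = 0.239). Wap stood at 9.54, 18.5 and 5.40 millionths in TNKO tumours, against -7.75, 1.89 and 5.86 in WT tumours. TNKO tumour 3 lay just under WT tumour 3, so the groups overlapped, and the difference was 11.1 millionths (SE 5.23, adjusted p = 0.325).

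Lao1 stood at 1.96, 2.45 and 3.23 millionths in TNKO tumours, against -0.806, 1.66 and -0.851 in WT tumours. WT tumour 2 came close to the TNKO tumours, without overlap. The difference was 2.55 millionths (SE 0.872, 2.30 residual SDs, limma adjusted p = 0.217). Glycam1 stood at -0.0593, 0.537 and 0.305 millionths in TNKO tumours, against -0.131, 0.173 and -0.0413 in WT tumours, with overlap and a difference of 0.261 (adjusted p = 0.657). Markers of high endothelial venules, the vessels of lymphoid tissue that also make Glycam1, were higher in 4 of 6 measured genes and lower in 2. Their mean level was 6.55 in every TNKO and every WT tumour to 2 decimals. Lymphocyte markers were higher in 8 of 9, with 1 at an unadjusted p under 0.05. Of all 18193 genes 57.6% were higher, and 20.3% of all probe sets had such a p by limma.

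Xdh, the brightest of the milk protein genes, had the greatest difference in log2 units. It stood at 211, 81.6 and 52.3 millionths in TNKO tumours, against 49.1, 22.2 and -71.3 in WT tumours. TNKO tumour 1 stood apart at the top and WT tumour 3 at the bottom, while TNKO tumour 3 and WT tumour 1 nearly touched. The difference was 115 millionths (SE 56.9, 1.54 residual SDs, limma adjusted p = 0.347), and without TNKO tumour 1 it was 66.9 millionths. Xdh is also made outside the mammary gland, and markers of some other cells shared its highest and lowest tumours, though not the order between them. Endothelial markers were higher in 8 of 8 genes, with TNKO tumour 1 at the top in 7 and WT tumour 3 at the bottom in 6, and a mean level of 6.9618 to 6.9619 in TNKO and 6.9616 to 6.9617 in WT tumours. Adipocyte markers were higher in 6 of 6, with TNKO tumour 1 at the top and WT tumour 3 at the bottom in all 6, and a mean level of 7.14 to 7.52 in TNKO and 6.94 to 7.22 in WT tumours. In the adipocyte markers the groups overlapped in all 6, with TNKO tumour 3 below WT tumour 1, and in the endothelial markers in 6 of 8. None of these 14 genes passed adjustment by limma, 1 had an unadjusted p under 0.05, and the part of these cells in the values of Xdh was not tested. Of all genes 57.6% were higher, and 20.3% of all probe sets had such a p. Over all probe sets TNKO tumour 1 was the highest in 18.6% and WT tumour 3 the lowest in 19.6%.

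**Figure D2:**
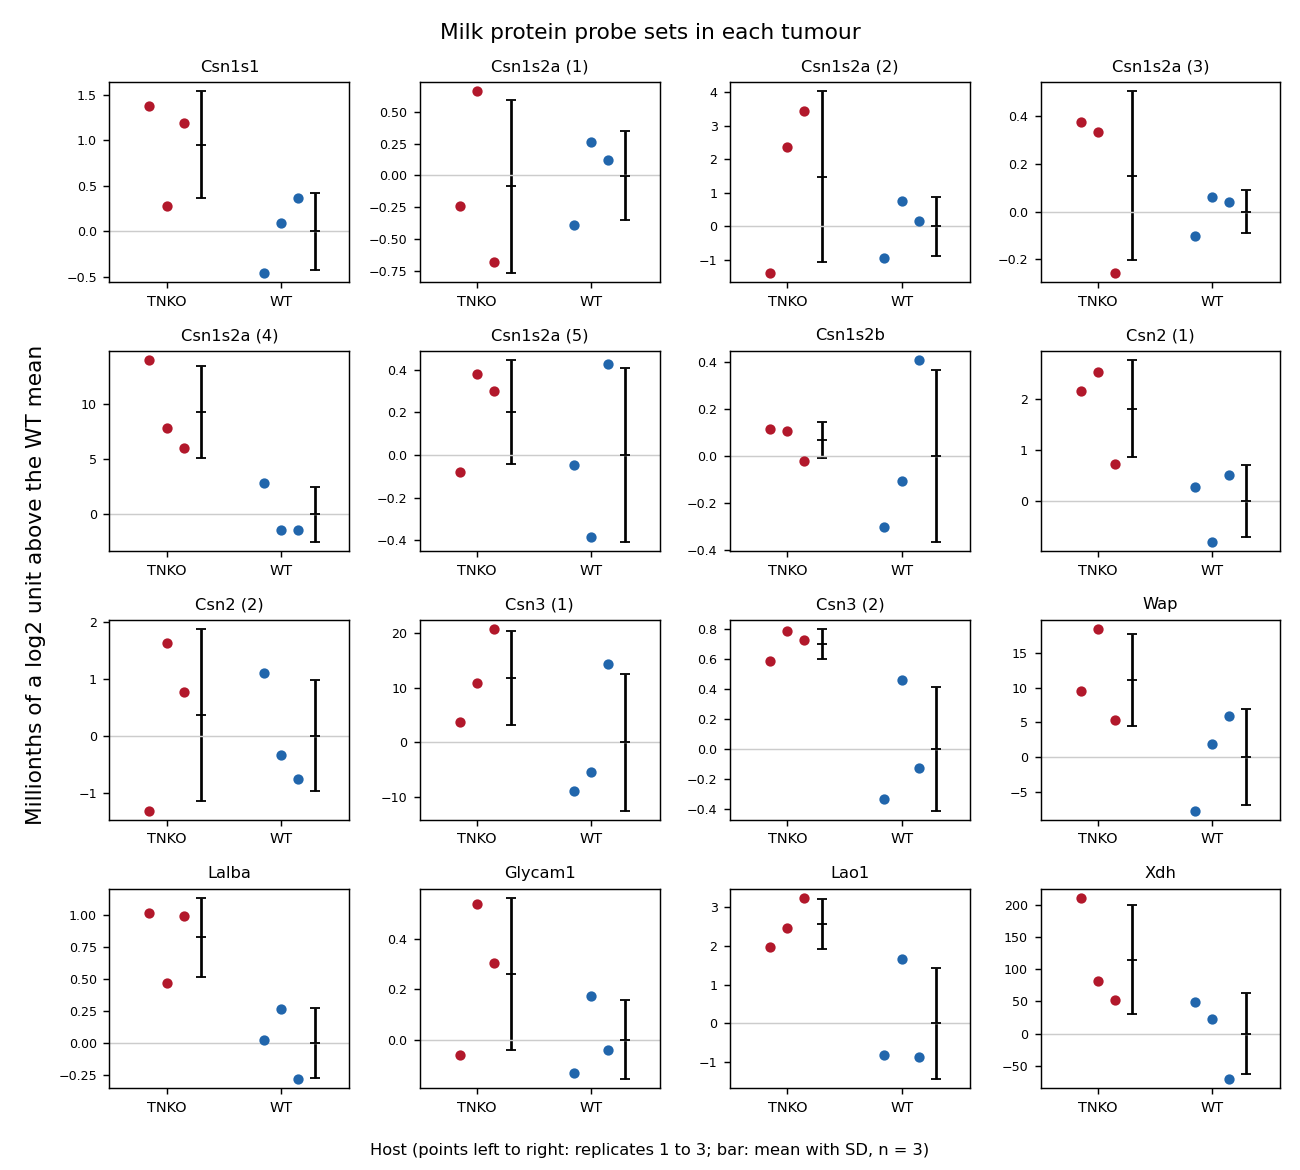
Values of each milk protein probe set in each tumour, 1 panel per probe set, with TNKO hosts on the left in red and WT hosts on the right in blue. The vertical axis is in millionths of a log2 unit above the mean of the WT tumours and differs between panels, points run from replicate 1 to 3, and bars give the mean with the SD (n = 3 each). The groups are apart in 6 panels, 1 each of Csn1s2a, Csn2, Csn3, Lalba, Lao1 and Xdh.

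Taken over the 16 probe sets, 6 (37.5%) had all TNKO tumours above all WT tumours and 0 had them all below. Of all 45037 probe sets, 14.2% had the TNKO tumours above and 13.8% had them below. Among the 22518 probe sets under the median level the share above was 17.5%, and among the 44 olfactory receptor probe sets 14 (31.8%). Of the milk protein probe sets 15 of 16 (93.8%) were higher in TNKO tumours, of the olfactory receptor probe sets 39 of 44 (88.6%), of all probe sets under the median level 66.3%, of those at or above it 42.6% and of all 45037 probe sets 54.4%. In residual SDs the median difference was 1.32 for the milk protein, 1.19 for the olfactory receptor and 0.173 for all probe sets. No test was made of these shares, and probe sets of 1 gene share their target.

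Hybridisation control probe sets, which bind added RNA and no mouse RNA, differed in the same direction as 15 of 16 milk protein probe sets. They were brighter, with levels of 8.48 to 13.72, against 5.55 to 7.95 for the milk protein probe sets. Of all probe sets at or above the median level 42.6% were higher in TNKO tumours. All 18 hybridisation controls were higher in TNKO tumours, 16 of them without overlap, by 0.173 to 61.4 millionths with a median of 16.8. The differences of 15 of the milk protein probe sets lay below that upper value and that of Xdh above it. The part of hybridisation in the milk protein differences was not tested.

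**Figure D3:**
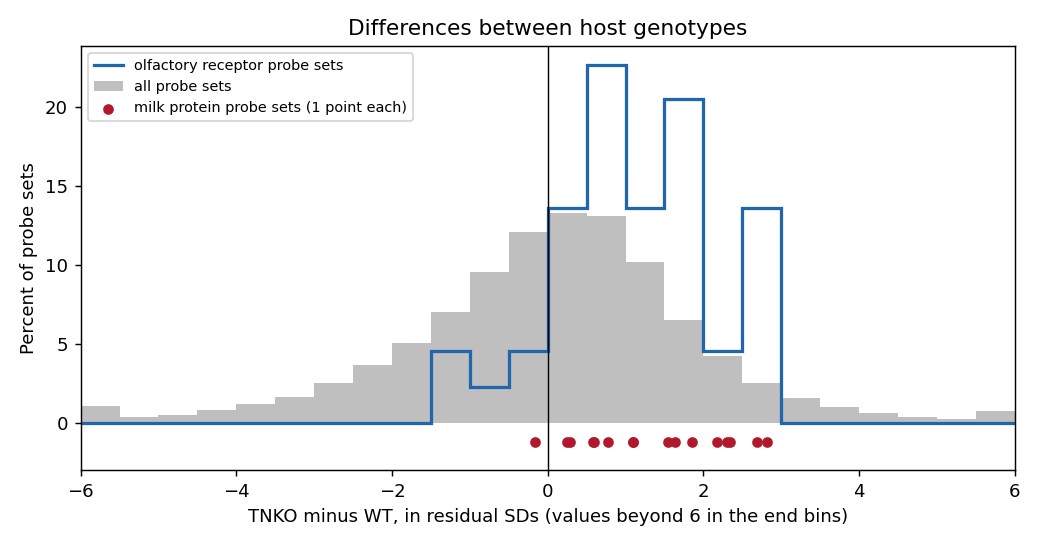
Distribution of the difference TNKO minus WT in residual SDs (horizontal axis) as the percent of probe sets per bin (vertical axis), for all 45037 probe sets (grey) and 44 olfactory receptor probe sets (blue line). Red points under the axis mark the 16 milk protein probe sets, of which 15 lie right of 0, as do 39 of the 44 olfactory receptor probe sets.

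The array of TNKO tumour 3 had a median of 6.5699, against 6.5674 to 6.5676 for the other 5 arrays, an offset larger than any milk protein difference. Rescaling lowered the median difference of the whole array by more than any milk protein difference as deposited. With array medians subtracted 0 of 16 milk protein probe sets were higher in TNKO tumours, and the median difference of all probe sets moved to -0.000782. With quantile normalization 1 of 16, Xdh, was higher, and the median of all moved to -0.000538. Relative to those medians of all probe sets 14 and 15 of the 16 lay above. With medians subtracted every difference moves by the same amount, so the 14 could not differ from the count as deposited. With quantile normalization the shift depends on where a probe set lies on the array, so the 15 cannot be told apart from that place. Without TNKO tumour 3 all 16 were higher as deposited, 4 of 16 with medians subtracted and 8 of 16 with quantile normalization. The number of milk protein probe sets that passed adjustment was 0 under each of these scalings.

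**Figure D4:**
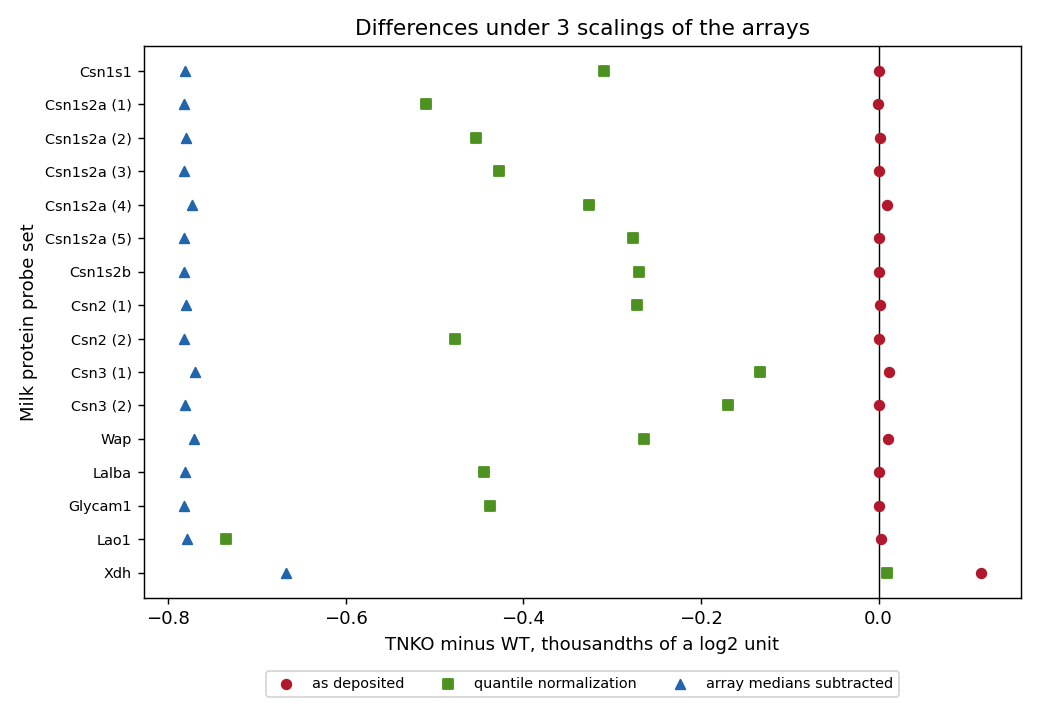
Difference TNKO minus WT of each milk protein probe set (rows) in thousandths of a log2 unit, as deposited (red circles), with quantile normalization (green squares) and with array medians subtracted (blue triangles). As deposited the points lie close to 0, and with medians subtracted, which moved the median of all probe sets to -0.000782, all 16 lie between -0.000782 and -0.000667 log2 units.

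Over the tumours, TNKO tumour 2 was the highest of the 6 in 6 milk protein probe sets, TNKO tumour 1 in 5, TNKO tumour 3 in 3 and WT tumour 3 in 2. TNKO tumours 1 and 3 were the lowest in 2 each and TNKO tumour 2 in 0, against 6 for WT tumour 1, 2 for WT tumour 2 and 4 for WT tumour 3. Over all probe sets each tumour was the highest in 11.9% to 20.2% and the lowest in 14.3% to 19.6%. The median of the 16 probe sets stood at 0.798, 1.21 and 0.88 millionths in TNKO tumours 1 to 3, against -0.216, 0.133 and 0.0835 in WT tumours 1 to 3.

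The genes whose values over the 6 arrays followed those of Csn2 most closely, among 18183 genes outside the milk protein list, were Ndst4, Cd209d, Defb42, Zbtb16 and Mrap, with Pearson correlations of 0.9912 to 0.9978. For Xdh they were Shkbp1, Zswim5, Gm5617, ND5 and Pum3, with correlations of 0.988 to 0.9897. A correlation above 0.95 was reached by 101 genes for Csn2 and 95 for Xdh. With 6 arrays and as many genes compared, these are descriptions only.

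Among the regulators of milk protein genes none passed adjustment either, but their levels and directions differed from those of the milk protein genes. Of 22 measured genes of prolactin and lactation signalling 12 lay above the median level of all genes, 7.09, each gene read from its brightest probe set. By limma 0 were called, and 6 of the 22 had an unadjusted p under 0.05, as did 20.3% of all probe sets. In TNKO tumours 11 of the 22 were higher and 11 lower, with a median difference of -0.0693 millionths. Over all 18193 genes the median difference was 0.2 millionths, 57.6% were higher, and 8 were called higher and 14 lower. Stat5a stood at a level of 7.23 and Stat5b at 7.93, above 67.4% and 78.3% of all probe sets. Stat5a differed by -3.64 millionths (limma adjusted p = 0.329) and Stat5b by -0.165 (adjusted p = 0.937), each with overlapping groups. Elf5, an alveolar cell transcription factor, was dim at 5.96 and stood at 18.8, 36.1 and 82.8 millionths in TNKO tumours, against 20.5, -9.37 and -11.1 in WT tumours (adjusted p = 0.302). The receptor gene Prlr was not analysed here.

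Within that list the lowest p-values belonged to Cebpb, which encodes C/EBP-beta, and Socs3, an inhibitor of cytokine receptors. Cebpb stood at -28.6, -36.8 and -36.0 millionths in TNKO tumours, against 8.88, -13.4 and 4.52 in WT tumours, with no overlap (difference -33.8, SE 6.82, limma adjusted p = 0.114). Socs3 stood at -21.4, -48.4 and -59.1 millionths in TNKO tumours, against -2.54, -4.35 and 6.88 in WT tumours (adjusted p = 0.150), but 1 of its 3 probe sets was higher. Both were lower in TNKO tumours, and neither passed. They lay above the median level of all probe sets, where 42.6% of probe sets were higher in TNKO tumours as deposited. The caseins lay below that level, where 66.3% were higher, as were 10 of the 11 casein probe sets.

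Genes of milk fat secretion were higher in 13 of 16 and lower in 3, against 57.6% higher among all 18193 genes. By limma 0 were called and 3 of the 16 had an unadjusted p under 0.05, as did 20.3% of all probe sets. The median difference of the 16 genes was 11.0 millionths, but some genes differed by far more. Cidea was higher in TNKO tumours by 0.381 log2 units and Cd36 by 0.221, each with overlapping groups (limma adjusted p = 0.41 and 0.354). Plin2 was higher by 0.00148 log2 units, without overlap (limma adjusted p = 0.228). Gpam, a first enzyme of triglyceride synthesis, differed by 30.8 millionths (adjusted p = 0.146) and Gpat4, another acyltransferase of that pathway, by -41.1 (adjusted p = 0.149), but 1 of the 2 probe sets of each went the other way. TNKO tumour 1 was the highest in 10 of the 16, against 18.6% of all probe sets. It was also the highest in 6 of 6 adipocyte, 7 of 8 endothelial and 7 of 10 macrophage and neutrophil markers. Among lymphocyte markers it was the highest in 1 of 9, and among muscle markers in 0 of 8. Adipocytes express several of the milk fat genes, and the part of any of these cells in their values was not tested. Btn1a1, the butyrophilin that binds xanthine dehydrogenase on the milk fat globule, stood at 6.22, below the median of all probe sets, and differed by 0.562 millionths (limma adjusted p = 0.534).

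Genes of lactose synthesis and casein phosphorylation were higher in 2 of 8 and lower in 6, with a median of -2.57 millionths. Of all 18193 genes 57.6% were higher. By limma 0 were called and 3 of the 8 had an unadjusted p under 0.05, as did 20.3% of all probe sets. B4galt1, the catalytic partner of alpha-lactalbumin, stood at 9.67, above 94.0% of all probe sets, and differed by 2.88 millionths (adjusted p = 0.760). B4galt1 also acts in general glycosylation. The lowest p-values were those of Hk1, a hexokinase, at -56.0 millionths (adjusted p = 0.131), and of the glucose transporter gene Slc2a1 at -1660 (adjusted p = 0.171), both of which act in glucose use by all cells.

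Minor milk and glandular secretory proteins were higher in 11 of 13, by a median of 4.52 millionths, against 57.6% higher among all 18193 genes. By limma 0 were called and 3 of the 13 had an unadjusted p under 0.05, as did 20.3% of all probe sets. Wfdc18, a gene of the whey acidic protein domain family like Wap, stood at 3.95, 6.27 and 5.18 millionths in TNKO tumours, against 0.571, 1.08 and -1.65 in WT tumours. The groups were apart, and the difference of 5.13 millionths (SE 1.02) had a limma adjusted p of 0.112. Wfdc3 of the same family differed by 4.12 millionths (adjusted p = 0.197). Like the caseins, Wfdc18 lay below the median level, at 6.18.

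Neighbours of the casein genes on chromosome 5 were dim too. All 11 measured were dimmer than the median gene, and the median of the 11 levels was 5.64. In TNKO tumours 9 were higher and 2 lower, by a median of 0.91 millionths. Of all 18193 genes 57.6% were higher, and of probe sets under the median level 66.3%. An unadjusted p under 0.05 was found in 20.3% of all probe sets. By limma 0 of the 11 neighbours were called and 2 had an unadjusted p under 0.05. These were Prol1, at 15.6 millionths (adjusted p = 0.195), and the oestrogen sulfotransferase gene Sult1e1, at 1.43 (adjusted p = 0.219). Odam, which lies between Csn1s2b and Csn3 in the reference annotation, stood at 5.64 and differed by 0.958 millionths (adjusted p = 0.617).

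Some epithelial markers had high levels on the same arrays. Krt8 and Krt14, keratins of luminal and basal epithelial cells, stood at 11.45 and 10.50, above 98.9% and 97.2% of all probe sets, while Krt19 stood at 6.07 and Epcam at 7.04. The 12 glandular epithelium markers were higher in 6 and lower in 6, with a mean level of 7.755 in TNKO and in WT tumours, and 0 were called by limma, with 1 at an unadjusted p under 0.05. Among markers of other cells, Csf1r and Cd14 of macrophages stood above 98.7% and 95.1% of all probe sets, Ptprc of leukocytes above 93.4% and Fabp4 of adipocytes above 90.3%. Muscle and hair markers set some tumours apart from the others of their group. Myh1 of skeletal muscle stood at 6.17, 6.64 and 9.28 in TNKO tumours 1 to 3, against 8.94, 9.44 and 8.65 in WT tumours 1 to 3, so that TNKO tumours 1 and 2 were low and TNKO tumour 3 was not. Krtap8-1 of hair stood at 5.98, 6.15 and 12.60 in TNKO tumours, against 6.04, 6.05 and 5.95 in WT tumours, high in TNKO tumour 3 alone. The mean of muscle markers was lower in TNKO tumours in 8 of 8, with TNKO tumour 1 the lowest in all 8, and that of hair and epidermis markers higher in 4 of 7, with TNKO tumour 3 the highest in those 4, and 0 were called in either list. The mean level of the hair and epidermis list was 6.26 to 8.16 in TNKO and 6.26 to 6.27 in WT tumours, and that of muscle 6.51 to 7.28 in TNKO and 7.10 to 7.31 in WT tumours.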

How the data were processed

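RNA of 6 tumours, 3 per host genotype, was hybridised to 1-colour Affymetrix arrays after labelling of 100 ng with a kit that starts at the 3′ end, per the labels' protocols. The authors deposited 1 normalized value per probe set and array, taken as log2 from its range. Per the submitters' processing notes R 2.7.2 was used. How probes were summarized, how arrays were normalized and which logarithm was taken is not given in the sources used here. Arrays differ by far less than is usual for this kind of data. There is no read depth, and precision is limited by the number of arrays. SEs and limma p-values describe the spread of the deposited values, whose small size the sources do not explain.

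Of 45101 probe sets 64 controls were left out and no filter on low values was used. Symbols came from the platform annotation (2016), where 34945 probe sets had 1 symbol, 932 several and 9160 none. Matching gene identifiers to RefSeq (GRCm38.p6) changed 0 symbols. Groups were compared with limma 3.58.1 in R 4.3.3 (lmFit, eBayes), two-sided, with Benjamini-Hochberg adjustment over 45037 probe sets and a threshold of 0.05. In simulated data of these 45037 probe sets, limma recovered 3, 39, 48 and 50 of 50 probe sets changed by 5, 10, 20 and 40 residual SDs, with 3 false calls.

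The members and gene lists were chosen with earlier results of these data known. Named are all milk protein probe sets, the 2 genes with the lowest p of each related list, Stat5a, Stat5b and Elf5, the brightest cell markers and the 5 genes most like Csn2 and Xdh. Btn1a1, B4galt1, Odam, Krt19 and Epcam were named after their values were seen, for their role, as was the comparison of differences with olfactory receptor genes. Cidea, Cd36 and Plin2 were also named after their values were seen, for the size of their differences. The alternatives tried were a replicate block, array weights, robust or trended eBayes, each array left out, a filter at the median level, quantile normalization and array medians subtracted. Both scalings without TNKO tumour 3 were added after seeing the data.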

Additional observations from a re-analysis of the deposited data

How the results depend on the processing

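The number of milk protein probe sets past adjustment by limma was 0 under each alternative run, with 3 probe sets testable when only those above the median level were kept. The lowest adjusted p of a milk protein probe set ran from 0.116 without WT tumour 2 to 0.989 with medians subtracted. That range leaves out both scalings without TNKO tumour 3. In the quantile one 3 of the 16 had an unadjusted p under 0.05 by limma, as did 11861 of all 45037 probe sets. The number higher in TNKO tumours, 15 as deposited, was 1 with quantile normalization, 0 with medians subtracted and 3 of 3 above the median level. Leaving out 1 array gave 14 to 16, and leaving out TNKO tumour 3 with a scaling gave 8 (quantile) and 4 (medians). Over all probe sets the 79 calls became 0 with quantile normalization (593 at an unadjusted p under 0.05), 0 with a replicate block (7816), 285 above the median level, 0 to 73 with 1 array left out and 1425 without TNKO tumour 3 after quantile normalization. Samples of the same number did not deviate together (correlations 0.029, -0.016 and 0.005), so the numbers were not taken as pairs, and 0 milk protein probe sets were called with the block. With medians subtracted 68 of all 45037 probe sets were called, 58 higher and 10 lower. In the related lists 2 milk fat, 3 adipocyte, 4 muscle and 3 hair and epidermis genes were then called, against 0 as deposited. As deposited, the groups overlapped in all 6 adipocyte and all 8 muscle markers, and Krtap8-1 of hair was high in TNKO tumour 3 alone.

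Differences that turned negative with quantile normalization were Csn1s1 -0.000309, Csn1s2a -0.000453, -0.000428, -0.000326 and -0.000277 in its dimmer probe sets, Csn1s2b -0.00027, Csn2 -0.000272 and -0.000477, Csn3 -0.000134 and -0.00017, Wap -0.000264, Lalba -0.000444, Glycam1 -0.000438 and Lao1 -0.000735. With medians subtracted Xdh was -0.000667, Csn3 -0.00077 and -0.000781, Wap -0.000771, Lao1 -0.000779, Csn1s2a -0.000773, -0.00078 and -0.000782, Csn2 -0.00078 and -0.000782, Csn1s1 and Lalba -0.000781, and Csn1s2b and Glycam1 -0.000782. By the scaling's own construction every difference moved by one amount there. With array weights the brightest probe set of Csn1s2a was 8.23e-09. With 1 array left out 3 probe sets changed sign: that of Csn1s2a ran from -4.59e-07 to 2.11e-07, Csn1s2b from -8.4e-08 to 2.7e-07 and the dimmer Csn2 from -2.71e-07 to 1.2e-06. The median milk protein level relative to all probe sets was -0.659 as deposited. It ran from -0.6591 to -0.6589 under both scalings and with each array left out.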
